A study of Arabidopsis thaliana with 2 samples.

Results

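The nuclear photosynthesis genes of Arabidopsis thaliana encode the proteins that the cell sends into the chloroplast to build the photosynthetic apparatus. They were chosen by name: a protein-coding gene on a nuclear chromosome was a member when its symbol or a synonym began with one of the prefixes for light-harvesting proteins (LHCA, LHCB, CAB), the small subunit of Rubisco (RBCS), photosystem I (PSAD to PSAO), photosystem II (PSBO to PSBY), the Rieske protein (PETC) or plastocyanin (PETE). Of 27444 nuclear protein-coding genes, 58 matched, 45 by their symbol and 13 by a synonym alone. A hyphenated synonym also brought in 7 genes for PsbP-like and PsbQ-like proteins, which resemble photosystem II subunits and are given as a group of their own.

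Light is absorbed by chlorophyll bound to antenna proteins and passed to photosystem II, which splits water, and to photosystem I, which reduces ferredoxin. Electrons travel between both through the cytochrome b6f complex and plastocyanin, and the energy gained drives carbon fixation by Rubisco. The nuclear genes of this apparatus are among the most strongly light-regulated genes of a seedling. IBH1 is an atypical bHLH (basic helix-loop-helix) factor that restrains cell elongation downstream of brassinosteroid. Such atypical proteins lack the residues with which other bHLH proteins contact DNA and act by pairing with them.

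Binding was measured by chromatin immunoprecipitation and sequencing with an antibody against GFP. The tagged group was the line p35S::IBH1-GFP (IBH1OE), which expresses the fusion from the strong, nearly ubiquitous 35S promoter, and the control group was p35S::GFP (GFP OE). Both were whole seedlings of ecotype Col-0, taken 10 days after sowing and grown at 22 °C with 16 h of light, so cell types are mixed and the level of the fusion is not that of the native protein. Each group is 1 library from 3 pooled immunoprecipitations, so there is no replicate error and no test between groups. The labels disagree at 2 points: IBL1 stands in the title of the tagged sample where its line has IBH1, and the library protocol calls the control Col-0.

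A single list of 2945 peaks with their summits was deposited, of which 2944 lay on the 5 nuclear chromosomes. It names no sample and is read here as the list of the IBH1-GFP group, because the study's design concerns IBH1. The score of a peak is the peak caller's own (50.01 at the lowest), and the height of a summit is the number of stacked fragments there (14 to 100). The highest score of the list, 1045.71, belonged to the peak over IBH1 itself. Only the tagged line carries IBH1 in a transgene as well, and whether reads of the transgene were aligned there was not tested. The list held 1 mitochondrial peak and 0 on a sequence named for the plastid, so the photosynthesis genes encoded in the chloroplast itself are not described. The sources used here give no read totals, and the sequencing depth behind the list is unknown. The 95% intervals below are exact binomial (Clopper-Pearson) and cover counting error only.

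A gene is called bound, with no further meaning, when it had a summit between its bounds or at most 1000 bp beyond them. By this measure 18 of the 58 photosynthesis genes were bound, or 31.0% (interval 19.5% to 44.5%), against 12.7% of all protein-coding genes (3499 of 27444). A summit inside the gene was found in 13 members, or 22.4% (12.5% to 35.3%), against 7.05% of all genes (1934). Peaks that scored 100 or more were found at 9 members, or 15.5% (7.35% to 27.4%), against 3.38% of all genes (927). All 3 shares were above the background, and so was that of bound genes without the PsbP-like and PsbQ-like proteins, 31.4% (16 of 51). No test is given, since genes of a single list are not replicates. The share was lower away from gene-poor windows. Without genes in or within 2 Mb of them, an alternative chosen after seeing the data, 7 of 42 members were bound. That is 16.7%, against 10.5% of all such genes.

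**Figure D1:**
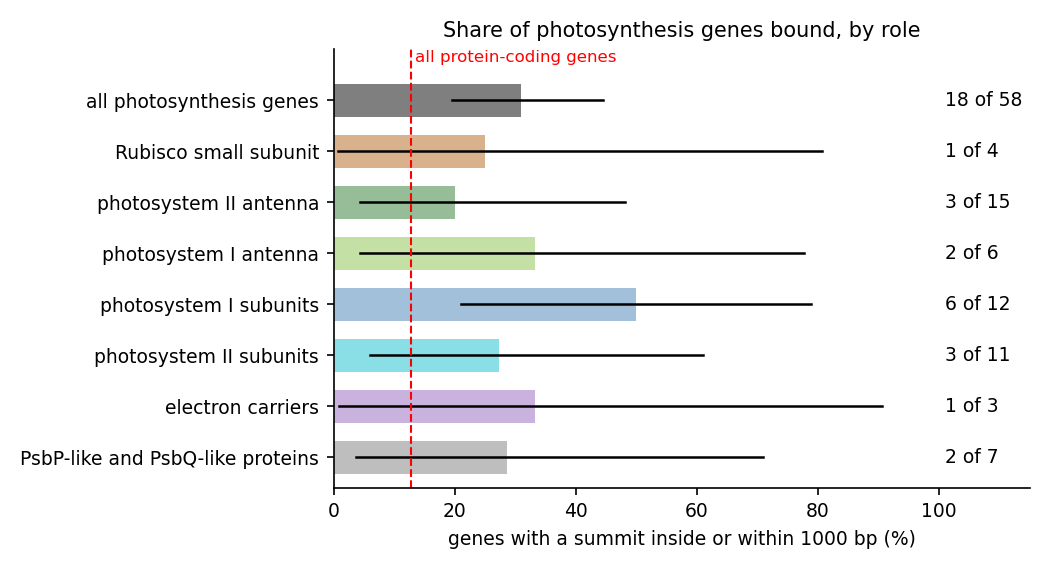
Share of photosynthesis genes with a summit inside or within 1000 bp (x axis, percent), for all members and for each role (y axis). Bars are shares, black lines exact 95% intervals for counting error only, the dashed red line the 12.7% of all protein-coding genes; the bars of all 7 roles end above it, but the lower ends of most intervals lie below it.

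Photosystem I subunits had the highest share bound, 6 of 12 (interval 21.1% to 78.9%), and photosystem II antenna genes the lowest, 3 of 15 (4.33% to 48.1%). Between them lay the photosystem I antenna (2 of 6), the electron carriers (1 of 3), the PsbP-like and PsbQ-like proteins (2 of 7), the photosystem II subunits (3 of 11) and the Rubisco small subunit (1 of 4). The intervals of all 7 roles overlap, so no role can be told from another at these numbers. The top rank also depended on the call. With scores of 100 or more, photosystem I subunits had 2 of 12 bound (16.7%), below photosystem II subunits at 3 of 11 (27.3%). The share of all genes by that call was 3.38%. For summits inside, photosystem I subunits had 4 of 12 (33.3%), the same share as the photosystem I antenna, against 7.05% of all genes.

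Rubisco, the enzyme that fixes carbon dioxide, takes its small subunit from 4 nuclear genes. One of them, RBCS3B (AT5G38410), held the peak with the highest score of all members, 223.84, which ranked 65 in the list. This peak spanned chromosome 5, 15377870 to 15379031 (TAIR9), and its summit at 15378525 was 48 fragments high and 117 bp inside the gene's upper bound. A weaker peak (score 58.02, height 19) lay 777 bp beyond the opposite bound, inside the neighbouring gene AT5G38400. RBCS3B stands in a row with RBCS2B (AT5G38420) and RBCS1B (AT5G38430), whose nearest summit was that of RBCS3B, at 2382 and 4642 bp. RBCS1A (AT1G67090), on another chromosome, had its nearest summit 31055 bp away. The genes are close copies, and whether reads of one were aligned to another was not tested.

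The antenna of photosystem II is built from major trimeric proteins (LHCB1, LHCB2 and LHCB3) and minor single proteins (LHCB4 to LHCB6). Of the major ones, the LHCB2 genes LHCB2.1 (AT2G05100) and LHCB2.2 (AT2G05070) each held a summit. LHCB2 is the protein whose phosphorylation lets antenna move between the photosystems. The peak of LHCB2.1 lay on chromosome 2 from 1823543 to 1824793 and scored 120.33, with a height of 38. That of LHCB2.2 lay from 1799689 to 1800971 and scored 81.38, with a height of 33. Both peaks took the same place in their genes: the summits were 221 and 213 bp inside the upper bound, at positions exactly 24000 bp apart. The genes are close copies of each other, and whether reads of one were aligned to the other was not tested. The remaining copy, LHCB2.3 (AT3G27690), had its nearest summit 11133 bp away.

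The remaining bound antenna gene of photosystem II was LHCB5 (AT4G10340), which encodes the minor antenna protein CP26. It held 2 summits. The stronger peak, on chromosome 4 from 6407675 to 6408727, scored 124.42 with a height of 34, and its summit was 309 bp inside the lower bound. The weaker scored 57.52 with a height of 24 and lay 426 bp inside the upper bound. None of the 5 LHCB1 genes, which encode the most abundant antenna protein, was bound: for CAB1, CAB2 and CAB3 the nearest summit was 20150 to 25762 bp away, and for LHB1B1 and LHB1B2 it was 5216 and 7566 bp away. The 3 LHCB4 genes, LHCB3, LHCB6 and LHCB7 (AT1G76570) had no summit within reach either.

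In the antenna of photosystem I, Lhca5 and LHCA3 were bound. Lhca5 (AT1G45474), a scarce antenna protein that helps to tie photosystem I to the NDH complex, held a summit of height 26 in a peak that scored 96.35. LHCA3 (AT1G61520), one of the main antenna proteins, held one of height 22 and score 64.87, and the whole peak of 1374 bp lay within the gene. LHCA1, LHCA2, LHCA4 and Lhca6 had their nearest summits 5781 to 44409 bp away.

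In the core of photosystem I, PSAD and PSAE form, with a plastid-encoded subunit, the stromal site where ferredoxin docks. Of their nuclear genes, PSAD-1, PSAE-1 and PSAE-2 were bound and PSAD-2 was not. PSAE-2 (AT2G20260) had the highest score of the group, 192.75, ranked 108 in the list, with a height of 34. Its peak, on chromosome 2 from 8736064 to 8737922, covered the whole gene. PSAE-1 (AT4G28750) was likewise covered whole, by the widest peak of any member, 2706 bp, which scored 91.34 and was 29 fragments high. For PSAD-1 (AT4G02770) the summit lay 116 bp outside the gene and inside its neighbour AT4G02760 (score 110.64, height 31).

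The other bound subunits of photosystem I sit in the membrane beside its antenna. PSAK (AT1G30380) held a summit of height 42 and score 99.03. PSAH-1 (AT3G16140), a subunit at the docking site for mobile antenna, held one of the weakest peaks of the members (score 52.07, height 24). PSAG (AT1G55670), which helps to hold the antenna of photosystem I, had a summit of height 27 and score 73.01 at a distance of 459 bp. That summit lay inside AT1G55675, with AT1G55673 and AT1G55680 also within reach, so PSAG is 1 of 4 candidates. The unbound subunits were PSAD-2, PSAF, PSAH2, PSAL, PSAN and PSAO, with the nearest summits 5550 to 92917 bp away.

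Of the photosystem II subunits, those bound have different tasks. PSBQ-2 (AT4G05180), an outer protein of the water-splitting complex, had a summit 139 bp outside the gene on chromosome 4, in a peak from 2672549 to 2673819. It scored 179.77, with a height of 48, equal to that of RBCS3B and the tallest of the members. NPQ4 (AT1G44575), better known as PSBS, the protein that switches on the release of excess light as heat, held a summit of height 28 and score 115.47. It lay 1563 bp from the nearer bound, deep inside the longest gene of the members. PSBX (AT2G06520), a small membrane subunit, was covered whole by a peak of score 106.19 and height 36, which also reached RPA1A and VPS2.1. All 3 scored above 100.

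Other outer proteins of the water-splitting complex were not bound. PSBO1 and PSBO2, which steady the manganese cluster, had their nearest summits 18027 and 14323 bp away, and PSBP-1 and PSBP-2 at 40201 and 12031 bp. For PSBQA, the copy of PSBQ-2, the distance was 3873 bp. PSBR, PSBW and PSBY were not bound either.

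Of the electron carriers, PETC (AT4G03280), the Rieske iron-sulphur protein of cytochrome b6f, was bound. Its summit lay 144 bp outside the gene, inside the tRNA gene AT4G03285; it scored 100.47 and was 20 fragments high. The plastocyanin genes DRT112 (PETE2) and PETE1 had their nearest summits 2862 and 26014 bp away. In the last group PPL1 (AT3G55330), a PsbP-like protein, held a summit of height 25 and score 58.67. PQL3 (AT2G01918), PsbQ-like, had one 472 bp away (score 51.76, height 35), which lay inside AT2G01920. PnsL1, PnsL2 and PnsL3, which are subunits of the NDH complex, and PPD1 and PPD6 were not bound.

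**Figure D2:**
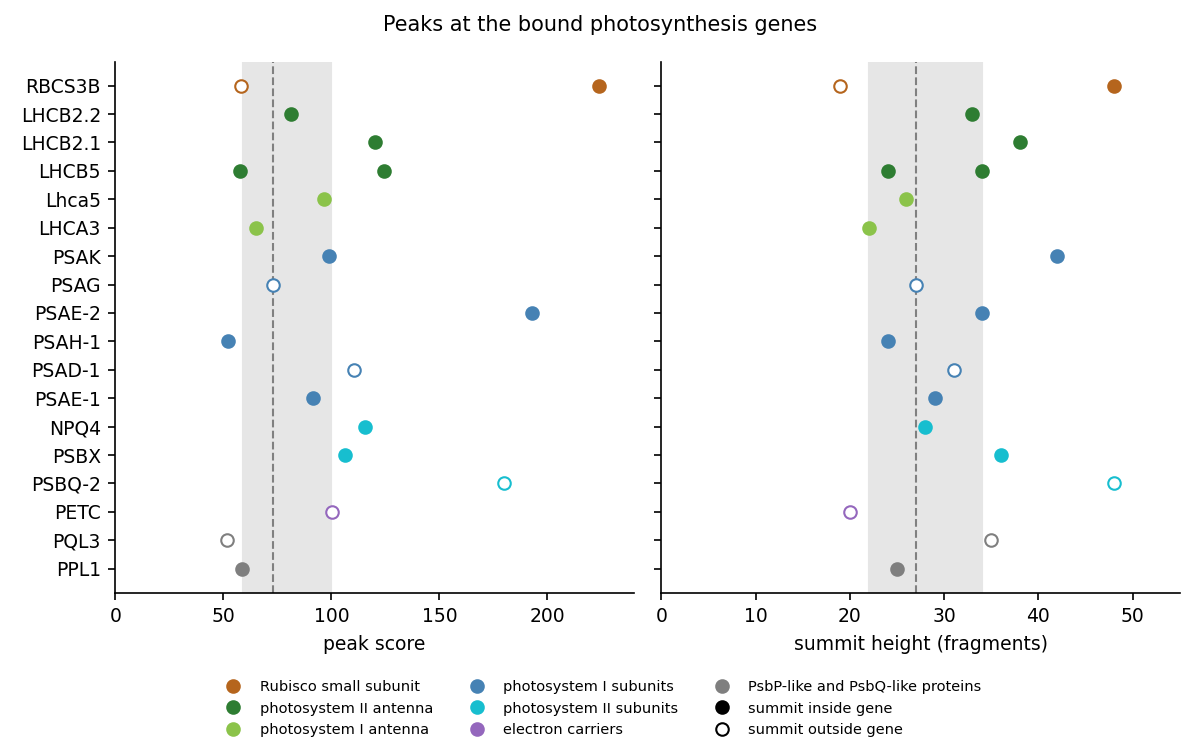
Peak score (left) and summit height in stacked fragments (right) for each peak at the 18 bound genes (y axis), coloured by role, filled where the summit is inside the gene. The grey band and dashed line mark the quartiles and median of all 2944 nuclear peaks; RBCS3B, PSAE-2 and PSBQ-2 have the highest scores, while PSAH-1 and PQL3 lie at the lower limit.

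Most peaks at photosynthesis genes, 14 of 20, scored at or above the median of the list. The 18 genes had 20 different peaks, with a median score of 97.7 (quartiles 63.3 and 117) against 72.8 (59.0 and 99.6) for all nuclear peaks. A score of 100 or more was reached by 9 of the 20, or 45.0%, against 24.8% of all peaks. In height they differed less, with a median of 30.0 against 27.0 fragments, and 13 of 20 reached the median of the list. They were also wider, with a median of 1241 against 885 bp, and 16 of 20 were at least as wide as the median. Counted by gene, the best peak scored 100 or more for 9 of the 18 bound members, against 26.5% of all bound genes.

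Families with several copies were bound wholly, in part or not at all. Of 11 families with 2 or more copies (RBCS, LHCB1, LHCB2, LHCB4, PSAD, PSAE, PSAH, PSBO, PSBP, PSBQ and PETE), PSAE had all copies bound, 5 had some, and 5 (LHCB1, LHCB4, PSBO, PSBP and PETE) had 0. Of all protein-coding genes 12.7% were bound, so 0 bound copies in so small a family do not set it apart. The copies of a family make nearly the same protein and often lie on different chromosomes, as PSAD-1 and PSAD-2 do.

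Most summits inside members lay near one end of the gene. Of 14 such summits, 10 (71.4%) were within 350 bp of a bound, against 50.9% of all summits inside protein-coding genes, with a median distance of 288 bp against 342 bp. The members are shorter, though: counted once per summit, the genes that held these summits had a median length of 1582 bp against 2483 bp. As a share of gene length the median was 20.3% for members and 16.1% for all genes, so relative to length the members' summits were no closer to the ends. The gene table gives neither strand nor exons, so which end is the start is not known here.

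**Figure D3:**
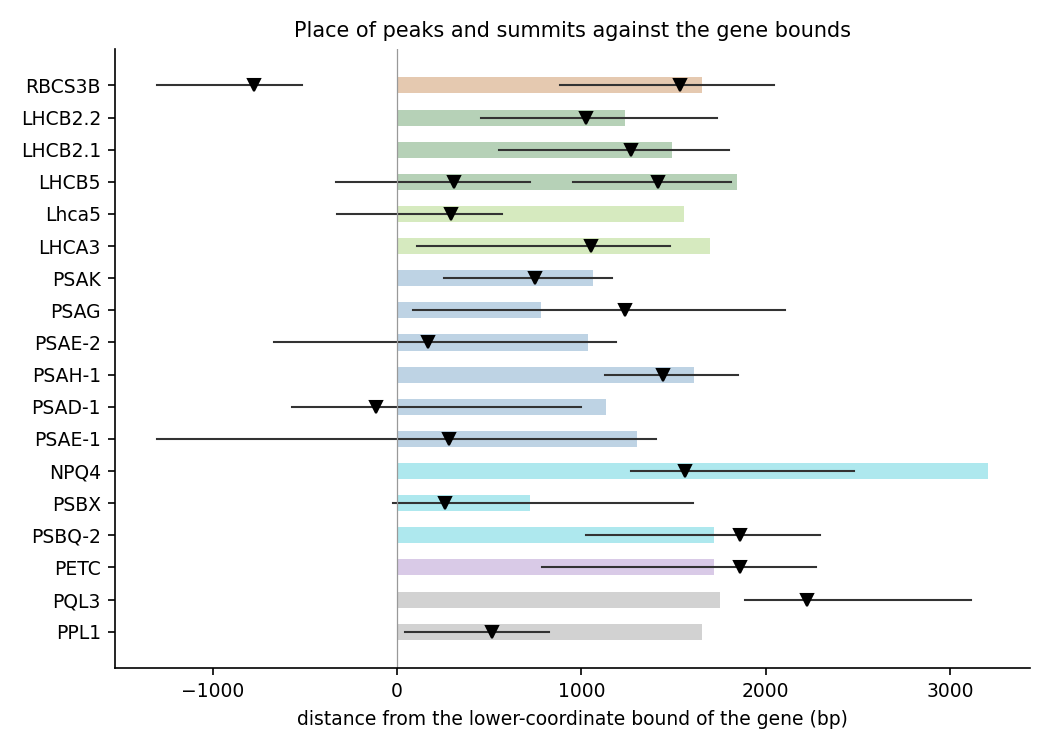
Each bound gene (y axis) is drawn as a bar from its lower-coordinate bound at 0 to its length, with its peaks as black lines and their summits as triangles (x axis, bp). Summits of 13 genes lie within the bars; LHCB2.1 and LHCB2.2 show the same arrangement, and PSAE-1, PSAE-2 and PSBX are covered whole.

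The choice of 1000 bp hardly mattered for the members. No member had its nearest summit between 500 and 2000 bp, so the count was 18 with any limit in that range, while the share of all genes rose from 10.6% at 500 bp to 16.7% at 2000 bp. The members nearest to the limit were PQL3 at 472 bp on the inside and RBCS2B at 2382 bp on the outside. At 5000 bp 22 members (37.9%) and 27.7% of all genes had a summit, and at 20000 bp 67.2% and 60.3%. The members and all genes thus differed at short distances.

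**Figure D4:**
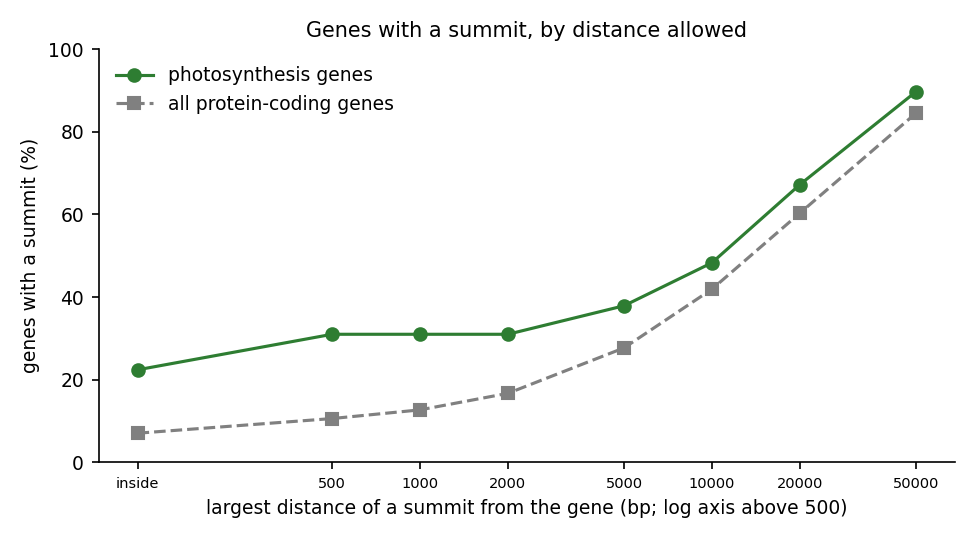
Share of genes with a summit (y axis, percent) within a given distance of the gene (x axis, bp, logarithmic above 500), for the 58 photosynthesis genes (solid) and all 27444 protein-coding genes (dashed). The members run flat at 31.0% from 500 to 2000 bp, above all genes, and the lines approach each other at larger distances.

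A summit counts for each gene in reach, so neighbours matter. For 15 of the 18 bound members at least 1 summit was inside the member or nearer to it than to any other protein-coding gene. The exceptions were PSAG, PSAD-1 and PQL3. With each summit counted only for its nearest gene, 25.9% of the 58 members were bound, against 9.26% of all genes. In 9 of the 20 peaks (45.0%) no other protein-coding gene was within reach of the summit, and the same held for 1598 of the 2663 peaks of the list that reach a gene. These 9 member peaks were at RBCS3B, LHCB2.1, LHCB2.2, LHCB5, Lhca5, LHCA3, PSAK, NPQ4 and PSBQ-2. Both PSAE genes shared their summit's reach with others, PSAE-2 with AT2G20250 and AT2G20270, and PSAE-1 with AT4G28740 and AT4G28755. Not named above, AT4G10330 was in reach of the stronger summit of LHCB5 and ROPGEF13 of that of PSAH-1. The same held for AT4G03290 at PETC, BPC1 at PQL3 and ABCB20 at PPL1.

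Bound members were concentrated close to the gene-poor regions, which lie mostly around the centromeres (windows of 500000 bp with fewer than 60 protein-coding genes per window length). Within 2 Mb of such a window 10 of 15 members were bound, or 66.7% (interval 38.4% to 88.2%), against 23.5% of all genes there. Most of these were on chromosomes 2 (3 of 3, all genes there 20.5%) and 4 (4 of 4, all genes 31.5%). Chromosome 1 had 2 of 3 (all genes 20.6%), chromosome 3 had 0 of 2 (24.6%) and chromosome 5 had 1 of 3 (19.0%). These counts are too small to tell chromosomes apart. On chromosome 3 the only bound members lay beyond 5 Mb (2 of 6, all genes there 7.46%). At 2 to 5 Mb the count was 3 of 11 (27.3%) against 15.1%, and beyond 5 Mb 4 of 31 (12.9%, 3.63% to 29.8%) against 8.72%. PSBX, the single member inside such a window, was bound. The 10 bound members within 2 Mb of these regions were RBCS3B, LHCB2.1, LHCB2.2, LHCB5, Lhca5, PSAD-1, NPQ4, PSBQ-2, PETC and PQL3. Far from them lay LHCA3, PSAH-1, PSAE-1 and PPL1, where the share of members was above that of all genes, though within counting error. What sets this pattern was not tested.

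**Figure D5:**
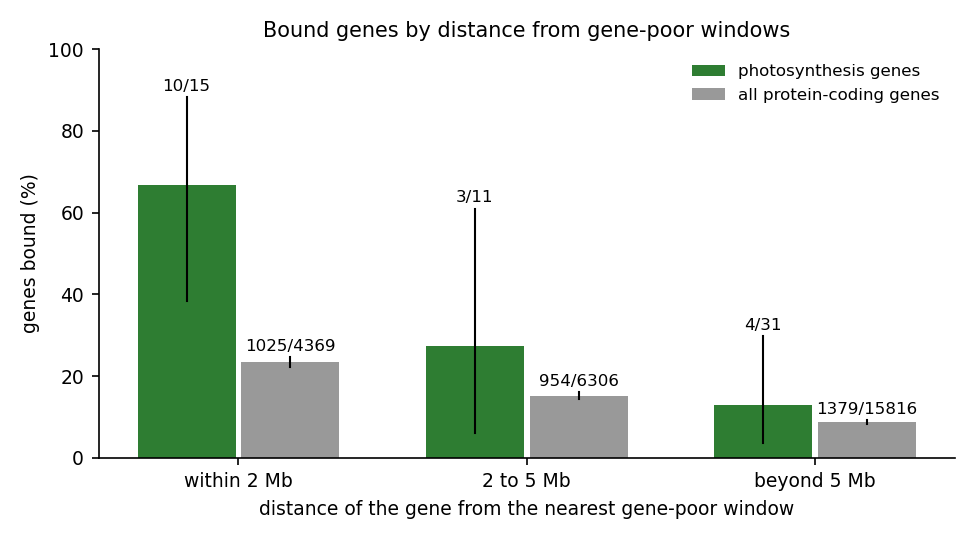
Share of genes bound (y axis, percent) by distance from the nearest gene-poor window (x axis), for photosynthesis genes (green) and all protein-coding genes (grey), with exact 95% intervals and counts. The members stand well above all genes within 2 Mb (10 of 15). Beyond 5 Mb (4 of 31) they are above all genes but within the interval.

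By chromosome, members were bound in 5 of 8 cases on chromosome 4 (all genes 17.3%), 5 of 11 on chromosome 2 (14.2%), 5 of 22 on chromosome 1 (11.8%), 2 of 10 on chromosome 3 (11.5%) and 1 of 7 on chromosome 5 (10.9%). The members are short, with a median length of 1442 bp against 2078 bp, and short genes were bound less often. Among genes of up to 1597 bp, 9 of 36 members were bound, against 9.29% of all genes, and from there to 2644 bp 8 of 21 (38.1%) against 13.3%.

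Other genes of photosynthesis were taken from lists of 62 genes by code. The lists were chosen with earlier results of these data known, so their shares describe the listed genes only. Of the 62, 13 were bound (21.0%, interval 11.7% to 33.2%), against 12.7% of all genes. Further thylakoid proteins had 8 of 22 bound (36.4%, 17.2% to 59.3%). Among them were both listed nuclear subunits of the chloroplast ATP synthase, ATPC1 (score 85.6) and ATPD (133), each with a summit inside. PGR5, which drives cyclic electron flow around photosystem I, had 2 summits nearby, the better with a score of 108, and its partner PGRL1A had one 631 bp away that was nearer to LDOX. The small photosystem II proteins PSB28 (score 169, 77 bp away) and PSBTN (93.6, inside) were also bound, as were CURT1B (51.7, 209 bp away), which curves the thylakoid membrane, and LIL3:1 (55.3, inside).

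The shares of the enzyme lists were close to that of all genes, but their intervals were wide. They were 3.38% to 39.6% for chlorophyll synthesis and 1.46% to 36.4% for the Calvin cycle. Both overlap the interval of the further thylakoid proteins, so these lists cannot be told apart. In chlorophyll synthesis 3 of 19 were bound (15.8%): HEMA1, which starts the pathway (score 94.6, inside), G4, the chlorophyll synthase that ends it (64.4, inside), and GSA2 (57.7, 561 bp away and nearer to DCF). In the Calvin cycle 2 of 17 were bound (11.8%): the transketolase TKL1 (80.4, inside) and CP12-1 (77.0, 564 bp away and nearer to AT2G47390). RCA, which activates Rubisco, was not bound. None of the 4 listed regulators of chloroplast development, GLK1, GLK2, CGA1 and GNC, was bound (0 of 4, an upper bound of 60.2%). With scores of 100 or more, 3 of the 62 were left, 4.84% against 3.38% of all genes.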

How the data were processed

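Per the labels' protocols, DNA from 3 ChIP experiments was pooled and amplified with 18 PCR cycles for each library. The submitters' processing notes name the build TAIR9 and the tools Bowtie, MACS and CASAVA 1.8.2. The sources used here give neither settings nor the role of the control. The deposited score of a peak is the caller's own, which MACS writes as 10 times the −log10 of a p-value, and the deposited signal at a summit counts stacked fragments in whole numbers. Both rank peaks within this list only.

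Genes were placed with a RefSeq gene table of TAIR10.1 (no strand, no exons), whose bounds served to place summits against genes. Printed coordinates are the authors', counted from 1. Calls were computed in Python 3.11.15 with NumPy 2.4.6 and SciPy 1.17.1, and tested on simulated summits. Members and lists were chosen with earlier results of these data known. Named are bound members, other protein-coding genes in reach of their summits, unbound members by role, and bound genes of the further lists. RCA and the unbound regulators were named after their values were seen. Alternatives changed the score limit, the distance, the summit, the assignment to neighbours, merging, membership and regions. No motif was searched, as no genome sequence was used here.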

Additional observations from a re-analysis of the deposited data

How the results depend on the processing

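The share of photosynthesis genes bound was above that of all genes under each of the 14 alternatives, at 1.59 to 4.59 times the background (2.44 as reported). The alternatives reuse the same genes and the same single list, so they are not independent of each other. With scores of 100 or more, 9 members were bound (15.5%), against 3.38% of all genes. A summit inside was held by 6 members (10.3%), against 1.72% of all genes. Of the further 62 genes 3 were bound, and the median score at members was 120.3. Fewer peaks remain by construction. The share of all genes was 6.70% with scores at or above the median and 7.05% for summits inside alone, where 7 of the further genes were left. Without genes in or within 2 Mb of gene-poor windows, 7 members of 42 were bound, 16.7% against 10.5%, which gave the lowest ratio. That setting, the one without PsbP-like and PsbQ-like genes and the one on summit height were chosen after seeing the data. Of the 18 bound members, 6 stayed bound under every alternative of score, distance and assignment. The PsbP-like and PsbQ-like group and the photosystem I antenna fell to 0 with scores of 100 or more, and the electron carriers to 0 for summits inside. The planned share of promoters with a motif was not run for want of sequence. No paired analysis was possible because neither group has more than 1 library. With the depth unknown, a gene that lacks a peak here may still be occupied by IBH1.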
